A study of Mus musculus with 5 samples.

Results

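Oxidative phosphorylation is carried out by complexes I to V of the inner mitochondrial membrane. Complex I (NADH dehydrogenase), complex II (succinate dehydrogenase), complex III (cytochrome bc1) and complex IV (cytochrome c oxidase) pass electrons to oxygen and, complex II apart, pump protons, and complex V (ATP synthase) uses the proton gradient to make ATP. Most of their subunits are encoded in the nucleus, and the rest in mitochondrial DNA. Skin cells differ in how far they rely on this route or on glycolysis, and muscle is a classic tissue of high oxidative capacity with its own isoforms of several complex IV subunits. The genes described here are nuclear ones picked by symbol. Their symbols start with Nduf, a family letter (a, b, c, s or v) and a digit, or with Uqcr, Cox4 to Cox8 or Atp5. Sdha, Sdhb, Sdhc, Sdhd and Cyc1 complete the rule. Of 27998 genes in the deposited tables, 85 symbols matched, and 83 held at least 50 UMIs (unique molecular identifiers, each standing for 1 captured RNA molecule) over the 5 libraries. Cox7b2 and Cox8c were under that minimum. The 83 comprise 35 genes of complex I, 4 of complex II, 9 of complex III, 18 of complex IV (Ndufa4 and its paralog included, since Ndufa4 belongs to that complex), 15 of complex V, and Atp5s and Atp5sl, which carry the name but are not subunits of the enzyme. All 83 are protein-coding.

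The libraries hold single cells of C57BL/6 mouse skin, sorted for live cells and captured with the 10x Genomics 3′ chemistry, from un-wounded skin (n = 2) and from wounds (n = 3). Wounds had been made with a 6-mm punch at 7 weeks of age and were taken 4 days later as a disc of 10 mm, which also holds skin around the wound; the labels give no age for un-wounded skin. No genotype, transgene or drug is named for either group, and the labels do not say whether libraries came from separate mice, so p-values measure the spread between these libraries only. Levels are given as CPM, the UMIs of a gene scaled to a total of 1000000 UMIs over the same cells of 1 library, or as the summed share of a gene group in percent of UMIs, as mean ± SD over libraries where libraries are averaged. Series of 5 values are in the order un-wounded 1 and 2, then wounded 1, 2 and 3.

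The deposited tables held 4152 to 7578 barcodes and 33537809 to 59621412 UMIs per library, and 25617 cells were kept in all. Pairs of libraries shared 26 to 63 barcodes. Clustering gave 29 clusters, of which 20 were named into 12 classes by marker genes, and 4235 cells in 9 clusters stayed unnamed. Classes are described in libraries with at least 30 of their cells, except that the 29 basal keratinocytes of wounded library 2 were kept because the test uses that class in every library.

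The share of UMIs on the 83 genes differed between cell classes by far more than between libraries of a class. It was highest in skeletal muscle cells (Acta1, Mylpf, Tnnt3), at 9.05, 8.05 and 7.64% in wounded libraries 1, 2 and 3. Sebocytes, the lipid-producing cells of the sebaceous gland, followed with 3.97, 4.63 and 4.18% in un-wounded libraries 1 and 2 and wounded library 1. Pericytes or smooth muscle cells held 3.09 and 3.88% in un-wounded skin, and 3.29 and 3.08% in wounded libraries 1 and 3. Each of these 3 classes lay above every value of the other named classes in percent of all UMIs. For pericytes or smooth muscle cells this turned with the denominator. Without ribosomal and mitochondrial UMIs in it, they held 3.63, 4.76, 3.996 and 4.08% in the same 4 libraries. Outer root sheath or bulge keratinocytes then held 3.04, 3.85, 4.24, 3.94 and 4.92%, which overlapped. Hair follicle keratinocytes of the outer root sheath or bulge averaged 2.63% ± 0.32 (SD, n = 5), basal keratinocytes 2.54% ± 0.12 (n = 5), spinous keratinocytes 2.46% ± 0.067 (n = 5) and fibroblasts 2.23% ± 0.15 (n = 5), and the ranges of neighbours in this order overlapped. T cells (2.25 and 2.32%), macrophages or monocytes (2.07 to 2.31%) and dendritic cells (2.04 to 2.27%) lay in the fibroblast range. Langerhans cells held 1.57% (un-wounded library 1) and 1.87% (wounded library 1). Neutrophils were lowest, at 0.84 and 0.93% in wounded libraries 2 and 3. Counting error was small beside these differences: the widest 95% Wilson interval ran from 7.91 to 8.20%, for the muscle cells of wounded library 2. Classes are compared here as a description, without a test.

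**Figure D1:**
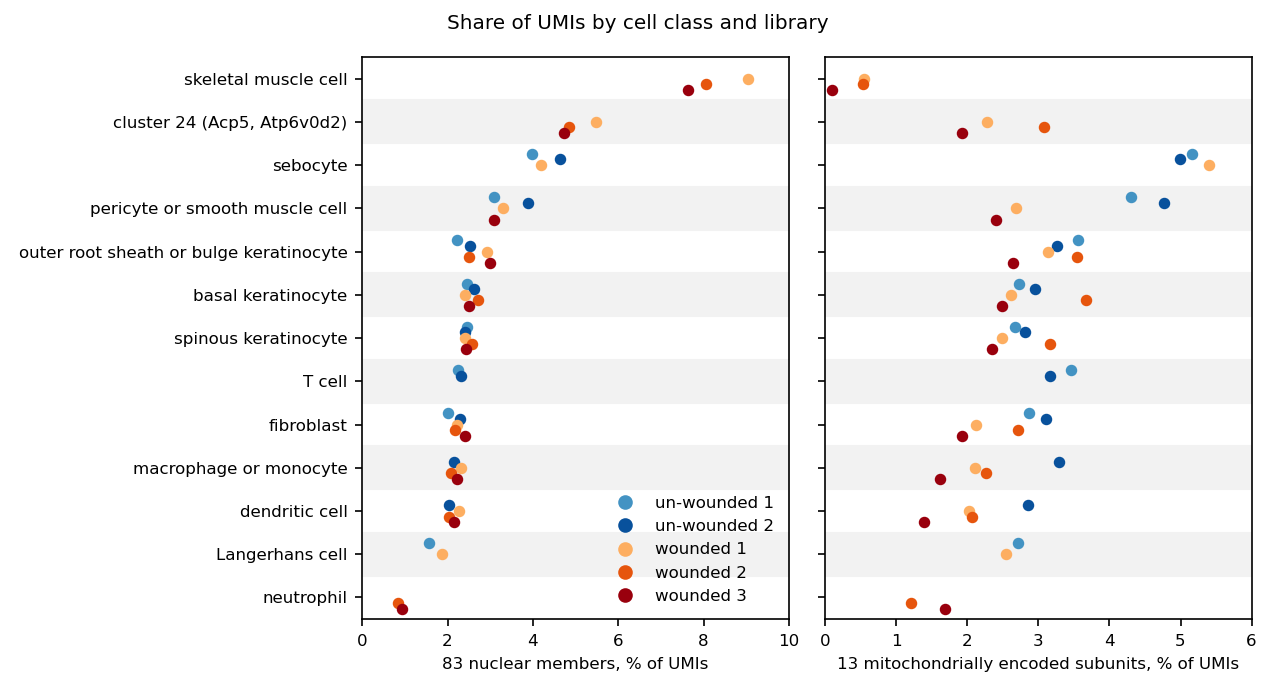
Share of UMIs on the 83 nuclear genes (left) and on the 13 mitochondrially encoded subunits (right), in percent of UMIs, with 1 point per cell class and library (blue, un-wounded; orange to red, wounded). Skeletal muscle cells are highest on the left, at 7.64 to 9.05%, and lowest on the right, at 0.098 to 0.55%, and neutrophils are lowest on the left.

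Most members shared this order. Taken over class means, 67 of 83 were highest in skeletal muscle cells, 9 in sebocytes and 4 in pericytes or smooth muscle cells, and 70 of 83 were lowest in neutrophils. In all 3 wounded libraries, 75 of 83 members were higher in muscle cells than in all kept cells together, where 10.7% of the 15364 genes with as many UMIs were. All 35 complex I, all 9 complex III and all 15 complex V genes were among the 75. Cox4i2, Cox6a1, Cox6b2, Ndufa4l2 and Cox8a, all of complex IV, were lower there in all 3, where 68.5% of all genes were. In sebocytes, 74 of 83 members were above basal keratinocytes in each of 3 libraries, against 19.4% of all genes. In pericytes or smooth muscle cells, 67 of 83 were above and 1 was below fibroblasts in each of 4 libraries, against 19.3 and 19.6% of all genes. In neutrophils, 78 of 83 were below macrophages or monocytes in both libraries, against 48.4% of all genes.

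The abundant members show the size of these differences. Atp5b, the catalytic beta subunit of ATP synthase, reached 1775, 986 and 1538 CPM in muscle cells of the wounded libraries and 1814, 1545 and 1755 CPM in sebocytes, and was 116 and 123 CPM in neutrophils. Uqcrb, a small subunit of complex III, was 2985, 2186 and 1934 CPM in muscle cells, 829, 893 and 1029 CPM in sebocytes and 93.6 and 79.3 CPM in neutrophils. For both genes every neutrophil value lay below every value of the other named classes. Uqcrh, also of complex III and with more UMIs than Uqcrb, differed less. Its class means were 1407 CPM in muscle cells, 1082 CPM in sebocytes and 268 CPM in neutrophils, its lowest class. Sdhb, the iron-sulfur subunit of complex II, was 706, 522 and 587 CPM in muscle cells and 20.2 and 70.5 CPM in neutrophils. Sdhc, also of complex II, had class means of 334 CPM in muscle cells and 17.7 CPM in neutrophils. Ndufa2, a subunit of the complex I matrix arm, followed the rest less closely, with 1308, 1550 and 1119 CPM in muscle cells, 334, 523 and 431 CPM in sebocytes and 283 and 485 CPM in neutrophils, so that neutrophils lay within the sebocyte range in 1 of 2 libraries.

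The 13 subunits encoded in mitochondrial DNA followed the nuclear ones in most classes. They were highest in sebocytes, at 5.16, 4.996 and 5.40% of UMIs. Neutrophils held 1.22 and 1.69%. Muscle cells were the exception, with 0.55, 0.54 and 0.098%, below every other class, while their nuclear share was the highest. Median mitochondrial UMIs per muscle cell were 0.074, 0.14 and 0.054% in wounded libraries 1, 2 and 3. The integrity of these cells was not tested. With no limit on mitochondrial UMIs per cell, in place of 10%, the muscle cells of wounded library 3 numbered 67 and not 63, with 0.26% mitochondrially encoded and 7.58% nuclear UMIs, and the other libraries kept their values. Across the 11 other classes, the nuclear share and the mitochondrially encoded share correlated at Pearson r = 0.93 and Spearman rho = 0.89. With muscle included, r was -0.24 and rho 0.45. These points share libraries and the same UMI total as denominator, and they are a description.

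Other mitochondrial gene groups took a like order over the classes. The 77 genes of the mitochondrial ribosome held 1.06 to 1.11% of UMIs in muscle cells, 0.71 to 0.75% in sebocytes and 0.22% in neutrophils, and their share correlated with that of the members at r = 0.98 over 12 classes. The 15 enzymes of the tricarboxylic acid cycle, which supplies the electrons, held 0.23 to 0.32% in muscle cells, 0.19 to 0.21% in sebocytes and 0.015 to 0.025% in neutrophils. The 16 glycolysis enzymes and transporters stood apart: they held 3.65 to 4.03% in muscle cells and 0.17 to 0.51% in all other named classes, neutrophils included at 0.34 and 0.51%. The correlation with the median UMIs per cell of a class was -0.056 with muscle and 0.59 without it.

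Complex IV has subunits in 2 isoforms, 1 in most tissues and 1 restricted, and here the pairs separated classes. Cox6a2 (chr7:128205435-128206387, minus strand, GRCm38), the muscle isoform of subunit VIa, was 2682, 2357 and 2471 CPM in skeletal muscle cells of the wounded libraries, and its ubiquitous partner Cox6a1 was 56.6, 28.6 and 33.3 CPM there, its lowest class. Elsewhere Cox6a1 was 219 to 1041 CPM and Cox6a2 0 to 8.06 CPM, except in wounded dendritic cells and neutrophils, described below. Cox8b (chr7:140898945-140900446, minus strand), the muscle isoform of subunit VIII, was 2023, 1543 and 1355 CPM in muscle cells and at most 22.5 CPM in any other class. Its partner Cox8a was 251, 214 and 247 CPM in muscle cells and 516 to 2028 CPM elsewhere. Cox7a1 (chr7:30184144-30186078, plus strand), the heart and muscle isoform of subunit VIIa, was 974, 1057 and 618 CPM in muscle cells and at most 28.1 CPM elsewhere. Here the partner did not give way: Cox7a2 was 988, 1057 and 948 CPM in muscle cells, its highest class. So in muscle cells Cox6a1 and Cox8a were low where their partners were high, and Cox7a2 was high together with Cox7a1.

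The other pairs marked other cells. Cox4i2 (chr2:152754173-152765037, plus strand), an isoform of subunit IV known from lung and from oxygen-sensing smooth muscle, was 467 and 414 CPM in pericytes or smooth muscle cells of un-wounded and 521 and 397 CPM of wounded skin, and at most 7.57 CPM in every other class. Its partner Cox4i1 was there at 1416 to 1538 CPM, inside its range over the other classes (423 to 2491 CPM). Ndufa4l2 (chr10:127514967-127517154, plus strand), a paralog of the complex IV subunit Ndufa4 known as a target of hypoxia-inducible factor, was 330 to 1336 CPM in fibroblasts, 529 to 1254 CPM in pericytes or smooth muscle cells, 390 to 658 CPM in basal and 423 to 601 CPM in spinous keratinocytes. It was at most 89.9 CPM in outer root sheath or bulge keratinocytes, sebocytes, muscle cells and all immune classes. Ndufa4 was highest in muscle cells, at 1797, 1450 and 1236 CPM. Cox6b2, known as the testis isoform of subunit VIb, was 25.6 to 81.6 CPM in dendritic cells, 21.7 to 62.4 CPM in pericytes or smooth muscle cells, at most 0.85 CPM in spinous keratinocytes and at 0 in all muscle libraries.

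**Figure D2:**
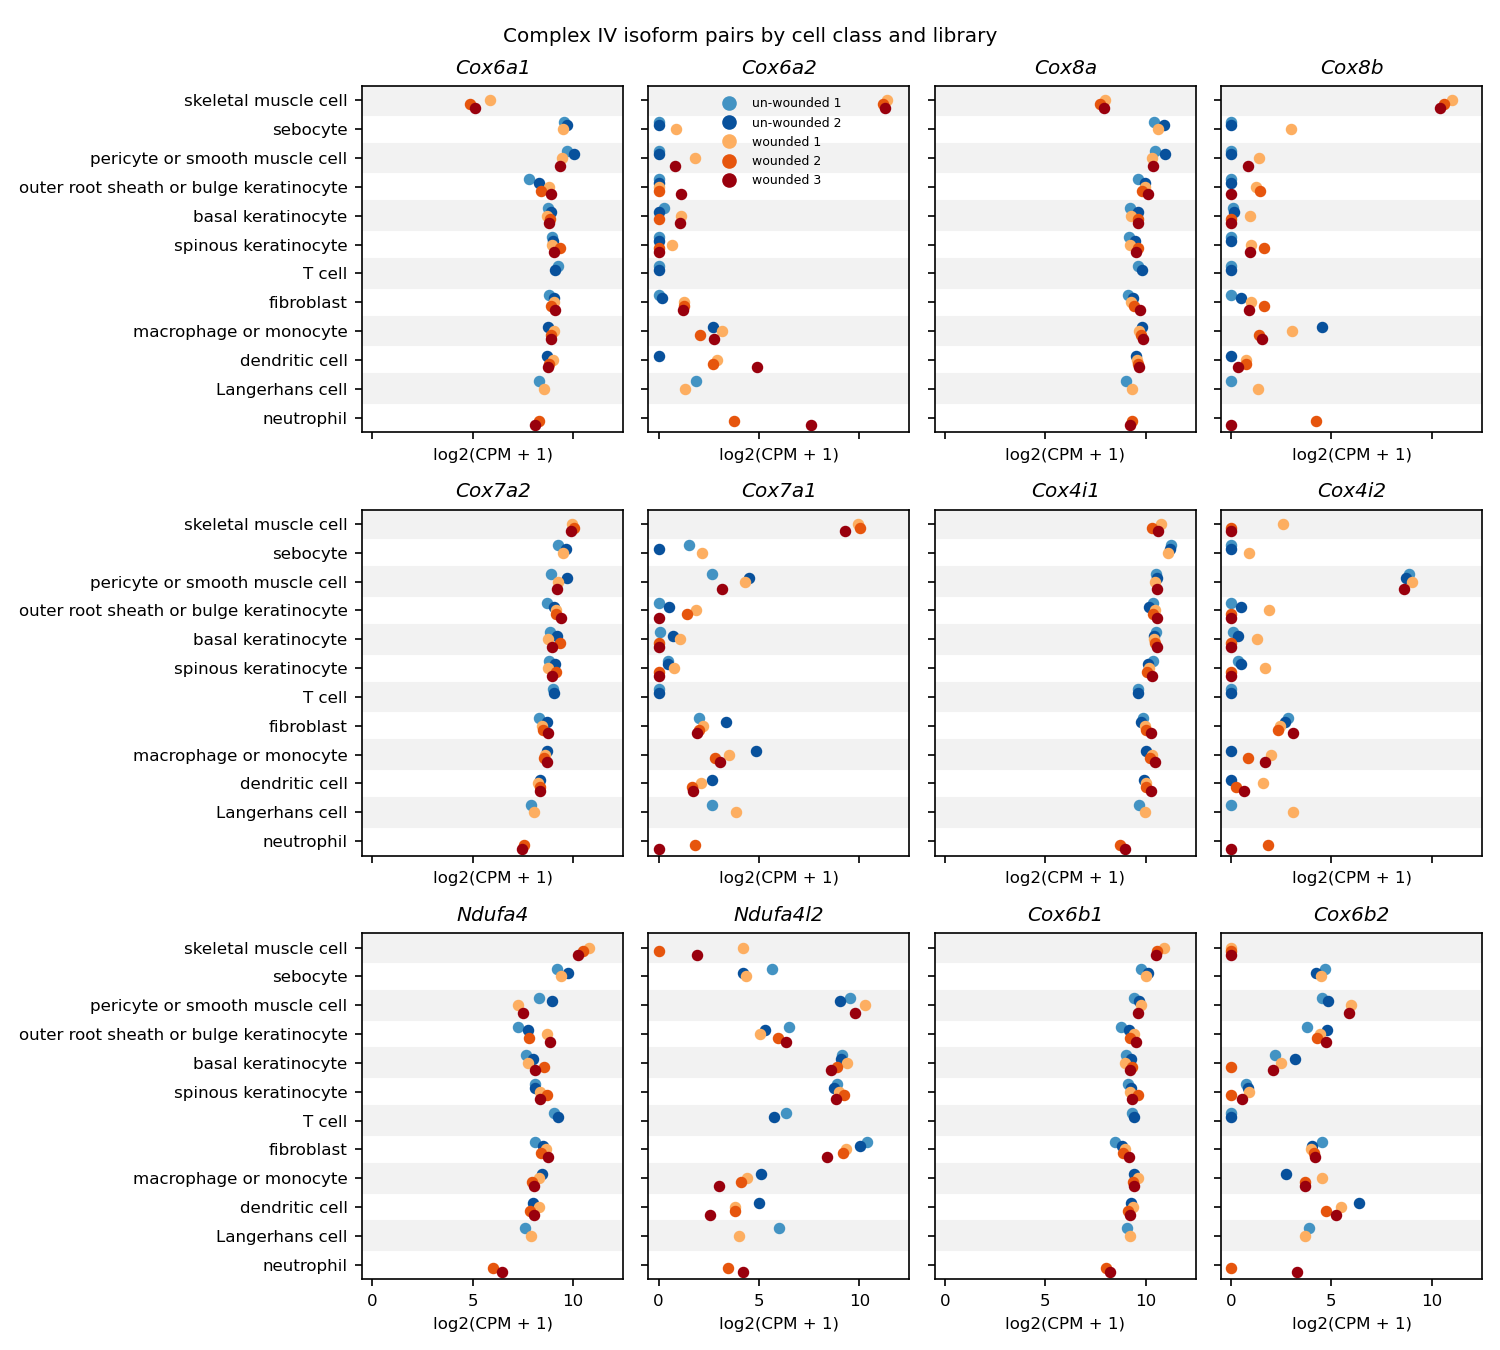
Complex IV isoform pairs, as log2(CPM + 1), with 1 point per cell class and library (blue, un-wounded; orange to red, wounded). Cox6a2, Cox8b and Cox7a1 stand out in skeletal muscle cells, Cox4i2 in pericytes or smooth muscle cells, and Cox6a1 and Cox8a are lowest in skeletal muscle cells.

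Promoters are shown for 2 muscle isoforms, Cox8b and Cox7a1, and 2 ubiquitous isoforms, Cox8a and Cox6a1. Only Cox8b and Cox8a are partners. No RefSeq promoter was at hand for Cox6a2, and that of Cox7a2 is not shown. Each line gives the 250 bases before the RefSeq start on GRCm38.p6, 5′ to 3′ on the strand of the gene; promoters of 65 of the 83 members had an entry in the RefSeq table. Capitals mark matches, on either strand, to an NRF1 site core (GCGCATGC), an ETS site core (CCGGAAG), an E-box (CAGCTG) or a TATA box (TATAAA); these letters were chosen after the levels were known. Cox8b lies at chr7:140900447-140900696 (minus strand), Cox7a1 at chr7:30183921-30184170 (plus), Cox8a at chr19:7217617-7217866 (minus) and Cox6a1 at chr5:115348959-115349208 (minus).
Cox8b: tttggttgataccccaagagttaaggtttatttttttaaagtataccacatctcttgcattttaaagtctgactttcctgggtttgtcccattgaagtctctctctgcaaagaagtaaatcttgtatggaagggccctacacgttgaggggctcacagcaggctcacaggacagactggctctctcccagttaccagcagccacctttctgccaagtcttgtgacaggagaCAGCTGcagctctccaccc
Cox7a1: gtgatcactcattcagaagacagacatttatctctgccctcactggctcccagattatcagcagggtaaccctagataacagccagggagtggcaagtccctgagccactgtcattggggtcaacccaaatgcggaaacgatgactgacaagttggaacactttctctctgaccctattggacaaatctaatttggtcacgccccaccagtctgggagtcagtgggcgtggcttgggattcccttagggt
Cox8a: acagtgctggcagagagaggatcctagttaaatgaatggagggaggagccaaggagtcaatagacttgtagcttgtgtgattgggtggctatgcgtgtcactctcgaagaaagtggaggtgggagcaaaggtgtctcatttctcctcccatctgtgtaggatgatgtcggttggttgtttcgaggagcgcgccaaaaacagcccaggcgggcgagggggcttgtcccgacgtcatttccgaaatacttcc
Cox6a1: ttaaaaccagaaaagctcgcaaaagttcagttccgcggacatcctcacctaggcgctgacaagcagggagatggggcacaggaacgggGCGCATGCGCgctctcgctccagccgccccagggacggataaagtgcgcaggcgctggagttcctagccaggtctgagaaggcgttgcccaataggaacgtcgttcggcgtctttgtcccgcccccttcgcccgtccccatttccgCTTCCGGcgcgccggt
Cox8b held the E-box and Cox6a1 held the NRF1 core, read on both strands with overlapping letters, and the ETS core; the other 2 held no match. Among the 65 members with a promoter, 8 (12.3%) held the NRF1 core against 2.32% of 27025 promoters of the same length, and 11 (16.9%) the ETS core against 7.05%. The E-box was in 6 (9.23%) against 12.8% and the TATA box in 5 (7.69%) against 12.97%. Matches are descriptions of letters and not of binding.

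An unnamed cluster of wounded skin came second to muscle. Cluster 24 held 157 cells and was led by Cma1, Mcpt4, Acp5, Tpsb2, Cpa3, Mmp9 and Atp6v0d2, a mixture of mast cell protease genes and genes of bone-resorbing cells. Its member share was 5.48, 4.85 and 4.74% in wounded libraries 1, 2 and 3. The mixture came from separate cells: 5, 4 and 4 cells held more UMIs of Cma1, Mcpt4, Cpa3 and Tpsb2 than of Acp5, Atp6v0d2, Ctsk and Mmp9, and their member share was 1.05, 0.76 and 1.57%. The other 33, 62 and 47 cells had 5.82, 4.93 and 4.85%. In the cluster as a whole, 78 of 83 members were above macrophages or monocytes in all 3 libraries, against 29.5% of all genes. This split was chosen after the values were seen.

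The member share of fibroblasts lay below that of basal keratinocytes in all 5 libraries, and the difference was unequal over the complexes. Complex III held 0.21 to 0.25% of UMIs in fibroblasts and 0.31 to 0.33% in basal keratinocytes, and complex V 0.48 to 0.66% and 0.68 to 0.78%, with no overlap in either. Complex I (0.59 to 0.68% and 0.63 to 0.72%) and complex IV (0.70 to 0.81% and 0.71 to 0.85%) overlapped. In all 5 libraries, 7 of 9 complex III and 10 of 15 complex V genes were lower in fibroblasts, and no complex III and 1 complex V gene was higher. Over all members 37 were lower and 14 higher in all 5, against 21.3 and 31.2% of all genes. Cox6c, a nuclear subunit of complex IV, was among the higher genes, at 1198, 1768, 1080, 1472 and 1189 CPM in fibroblasts and 557, 892, 642, 951 and 715 CPM in basal keratinocytes. Ndufa13, a complex I subunit, was 481, 509, 479, 428 and 477 CPM in fibroblasts and 299, 322, 278, 369 and 265 CPM in basal keratinocytes. For both genes every fibroblast value lay above every basal value. Spinous keratinocytes, the layer above the basal one, differed less from it: 10 members were higher in all 5 libraries (9.51% of all genes) and 23 lower (18%).

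Basal keratinocytes are the dividing layer of the epidermis, and they were split into 6 states. Un-wounded libraries 1 and 2 and wounded library 1 held 30 or more cells of each, and values are given in that order. An unnamed state led by Fabp5, BC100530, Krt6a and Stfa3 had a member share of 3.08, 3.44 and 2.99%. The cycling-like state (Ube2c, Top2a, Nusap1) held 2.76, 3.09 and 2.72%, and the Col17a1-high-like state 2.76, 2.67 and 3.02%. An unnamed state led by Ccl21a and Socs3 held 2.62, 2.61 and 2.79%. The early-response-like state (Cyr61, Btg2, Fos) was lower, at 2.28, 2.14 and 2.34%. The Fosl1-positive wound-state-like cells (Fosl1, Phlda1, Krt16) were lowest, at 2.14, 2.04 and 2.21%. Both un-wounded libraries gave this order of the 6 states. In wounded library 1 the Col17a1-high-like state came first and the cycling-like state after the Ccl21a state. The early-response-like and Fosl1-positive states were again lowest there. With ribosomal and mitochondrial UMIs out of the denominator the upper states changed order. The Fabp5-led state then held 3.96, 4.85 and 3.88%, and the cycling-like state 3.42, 4.13 and 3.45%. The Col17a1-high-like state held 4.26, 4.43 and 4.77%, and the Ccl21a state 3.765, 4.035 and 4.024%. The early-response-like (3.14, 3.09 and 3.29%) and Fosl1-positive (2.94, 2.999 and 3.12%) states stayed lowest. The 10 leading genes of the Col17a1-high-like state do not include Col17a1; its name rests on the summed markers. Wounded libraries 2 and 3 held few basal cells, so values of wounded states rest mainly on wounded library 1, which gave 1544 of them.

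**Figure D3:**
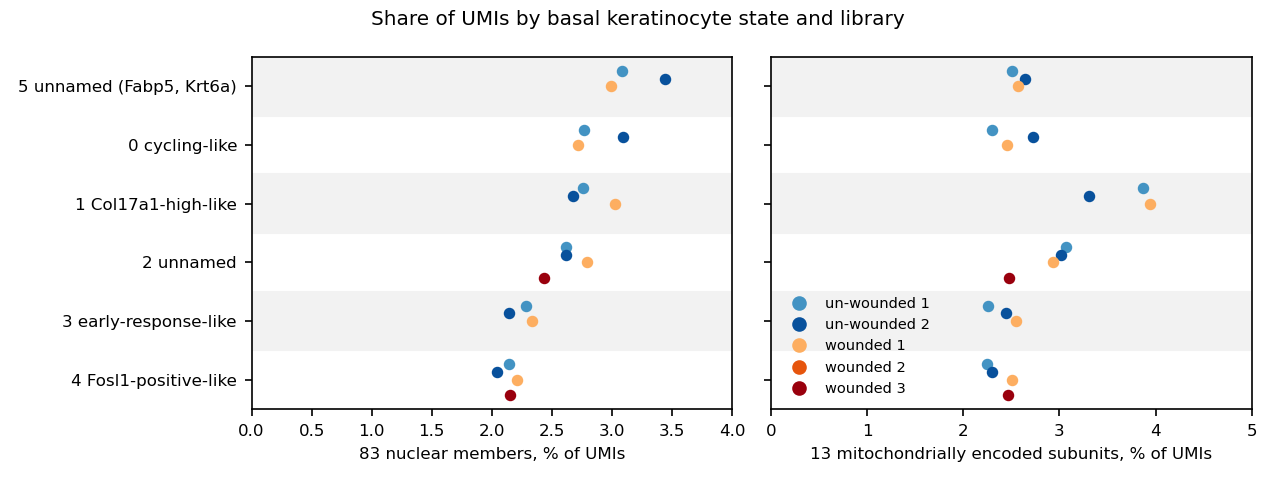
Share of UMIs on the 83 nuclear genes (left) and on the 13 mitochondrially encoded subunits (right) in the 6 basal keratinocyte states, in percent of UMIs, with 1 point per library (blue, un-wounded; orange to red, wounded). The early-response-like and Fosl1-positive wound-state-like states are lowest on the left in every library shown, and the Col17a1-high-like state is highest on the right.

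Most members took part in the low share of the Fosl1-positive state. Against the Col17a1-high-like state, 64 of 83 were lower in all 3 libraries, where 30.9% of all genes were, and they came from every complex (30 of 35 in complex I, 3 of 4 in II, 6 of 9 in III, 12 of 18 in IV and 12 of 15 in V). Uqcrc2, Uqcrfs1 and Sdha were higher in all 3; they are named because they are few and were chosen after their values were seen. Ndufa13 was among the 64, at 374, 352 and 430 CPM in the Col17a1-high-like state and 242, 235 and 244 CPM in the Fosl1-positive state. Atp5l, a membrane subunit of ATP synthase, was 1050, 1008 and 1284 CPM against 747, 772 and 902 CPM. Atp5b was not lower throughout, with 833, 538 and 814 CPM against 981, 749 and 803 CPM. Against the same state, 62 of 83 were lower in early-response-like cells in all 3 libraries (26% of all genes). The other end of the order showed the reverse: the Fabp5-led state was above the Fosl1-positive state in all 3 libraries for 67 of 83 members (22.4% of all genes), including all 15 of complex V, and the cycling-like state for 65 (33.3%). Only Cox7a2l was lower in the first of these contrasts, and Cox7a2l and Ndufa4l2 in the second. The cells also differed in depth, with median UMIs of 4174, 6816 and 4180 in the Col17a1-high-like and 7462, 13120 and 6898 in the Fosl1-positive state, and in cytosolic ribosomal genes (31.4, 36.3 and 32.8% against 25.1, 29.7 and 26.7%). Cytosolic ribosomal genes held 19.7, 26.4 and 20.35% in the Fabp5-led and 16.9, 22.4 and 18.7% in the cycling-like state. The part of depth and ribosomal genes in the member share was not tested.

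The wound comparison asked how levels differ between skin at rest and skin under repair, within a class. In basal keratinocytes the member share was 2.47, 2.61, 2.41, 2.71 and 2.50%, and in spinous keratinocytes 2.45, 2.41, 2.42, 2.57 and 2.43%; the groups overlapped in both. No member passed an adjusted p of 0.05 (edgeR quasi-likelihood test, adjusted over all genes) among the 79 of 83 with enough UMIs to test in basal keratinocytes, where 1.64% of all genes did, or among 78 in spinous keratinocytes, where 1.06% did. At an unadjusted p under 0.05 the counts were also 0 and 0 in edgeR, and 0 and 1 with DESeq2, which called 0 members in both; in edgeR 949 of 11295 and 915 of 10970 genes passed that unadjusted limit. Members' median log2 fold change (wounded over un-wounded) was 0.17 in basal and 0.18 in spinous keratinocytes, beside -0.032 and -0.033 over all genes. Without TMM factors, which edgeR uses to scale libraries to each other, these medians were -0.032 and -0.015 for members and -0.24 and -0.21 for all genes, so the sign of the members' median turned with the scaling while it lay above that of all genes under both. In basal cells 2 members were higher in every wounded library than in every un-wounded one (5.23% of all genes) and 5 were lower (24.7%); in spinous cells 6 were higher (6.13%) and 4 lower (20.2%). Basal cells of the 2 groups lay in the same clusters but in unequal shares. Cluster 9, led by Serpinb2, Epgn and Fosl1, held 14.4 and 6.04% of un-wounded and 48.5, 31.0 and 45.9% of wounded basal cells.

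Outer root sheath or bulge keratinocytes showed the largest median. Their member share was 2.22, 2.52, 2.93, 2.49 and 2.99%, so wounded library 2 lay between the un-wounded values. The difference of the group means was 0.44 percentage points, and 0.15 with no limit on mitochondrial UMIs. None of 78 members passed the test (1.87% of all genes did), and 11 had an unadjusted p under 0.05, all with higher values in wounds, where 922 of 6728 genes did, a like share. DESeq2 gave 12 such members and called 0. The median log2 fold change was 0.36 for members and -0.00088 for all genes, and 72 of 78 members were positive. Without TMM these were 0.20, -0.16 and 62. By complex the medians were 0.29 for complex I, 0.27 for complex II, 0.55 for complex III, 0.56 for complex IV and 0.43 for complex V. In 18 members every wounded library was above both un-wounded ones (10.3% of all genes) and in 1 all were below (21.1%). Uqcrfs1, the Rieske iron-sulfur protein of complex III, came nearest to the threshold, with 126, 116, 216, 215 and 217 CPM, a log2 fold change of 1.01 ± 0.26 (SE) and an adjusted p of 0.080 in edgeR; it was chosen after its values were seen. The cells were few, 125, 349, 117, 88 and 55, and their median depth ran from 3884 to 12640 UMIs, highest in wounded library 3.

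**Figure D4:**
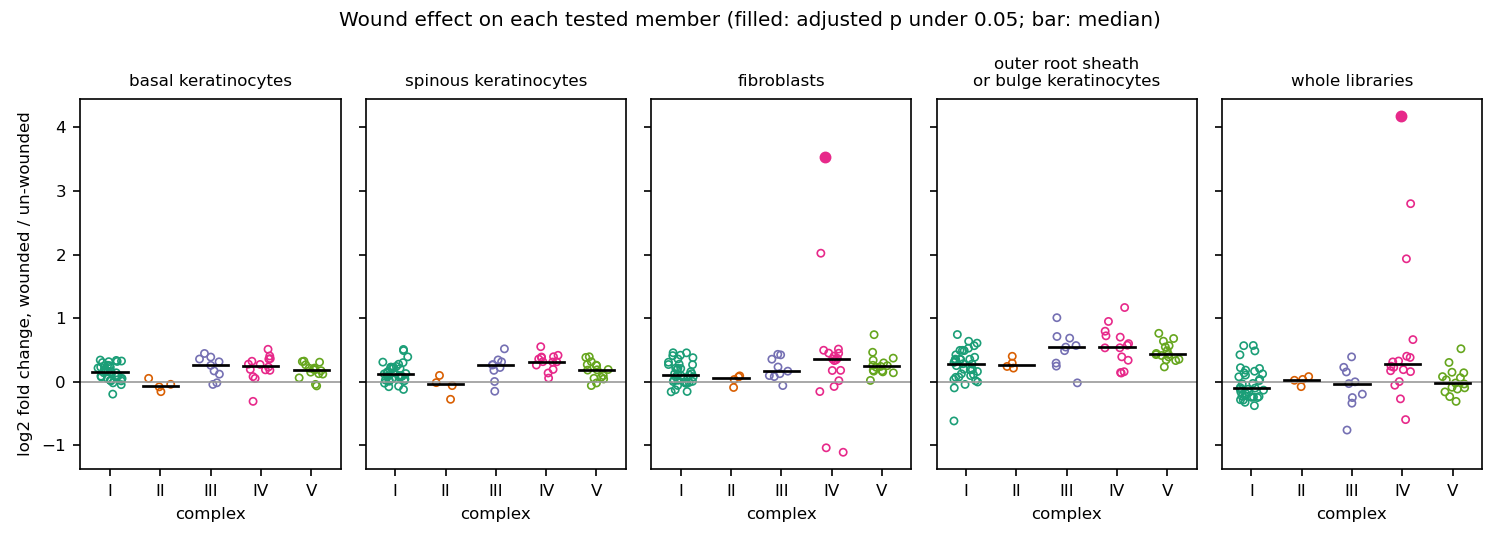
Log2 fold change (wounded over un-wounded) of each tested subunit by complex in 4 cell classes and in whole libraries, with the median of each complex as a bar and called members filled. The called members are Cox6a2 in fibroblasts and Cox8b in whole libraries, and the medians of outer root sheath or bulge keratinocytes lie between 0.27 and 0.56.

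In fibroblasts 1 of 83 members rose and none passed the test as lower (Ndufa4l2, near the threshold, is described below), where 7.58% of all genes were called. Member shares were 2.02, 2.30, 2.23, 2.17 and 2.42%, and the groups overlapped. The median log2 fold change was 0.18 for members and -0.0065 for all genes, 0.079 and -0.099 without TMM. In 12 members every wounded library was above both un-wounded ones (18.2% of all genes) and in 5 all were below (21.9%). The gene that rose was the muscle isoform Cox6a2, with 0, 2, 27, 21 and 23 UMIs, or 0, 0.14, 1.43, 1.41 and 1.32 CPM, and a log2 fold change of 3.54 ± 0.76 (SE, adjusted p = 0.024, edgeR). From the 2 un-wounded and 71 wounded UMIs the ratio was 11.6 with a counting interval from 3.09 to 97.3. That interval treats pooled UMIs as independent and leaves out the spread between cells and libraries. The 2 un-wounded UMIs lay in 1 cell of library 2, so the fold rests on it: the fitted log2 value was 7.23 without that library, which leaves an un-wounded group at 0, and 7.31 with doublets kept. The call was lost without un-wounded library 1 (adjusted p = 0.072, edgeR), where Cox7a1 was the only member called, as lower, without un-wounded library 2 (0.17) and without wounded library 3 (0.052).

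Muscle RNA rose with Cox6a2 in these fibroblasts. The 8 skeletal muscle markers summed to 19.0, 29.7, 103, 93.0 and 93.2 CPM, and 5 of the 6 that could be tested rose. Acta1, skeletal muscle actin, had 6.90, 8.06, 37.3, 34.3 and 44.4 CPM. Per 100 Acta1 UMIs, wounded fibroblasts held 3.82, 4.10 and 2.98 Cox6a2 UMIs and skeletal muscle cells of the same libraries 3.40, 3.22 and 2.71. Acta1 rose in basal, spinous and outer root sheath or bulge keratinocytes too (adjusted p = 0.00014, 0.0016 and 0.011, edgeR). The part of muscle RNA in the Cox6a2 call was not tested. The ratio was higher in wounded macrophages or monocytes (8.53, 6.11 and 9.91 Cox6a2 UMIs per 100 of Acta1) and in wounded dendritic cells (16.1, 16.5 and 88.8). In wounded library 3, 103 Cox6a2 UMIs lay in 14 of 349 dendritic cells and 22 in 2 of 32 neutrophils, which held 116 and 12 Acta1 UMIs.

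In whole libraries, all kept cells summed, another muscle isoform was called. Cox8b, not called in fibroblasts (adjusted p = 0.17, edgeR), rose from 0.73 and 0.70 CPM to 16.6, 8.78 and 13.4 CPM (log2 fold change 4.19 ± 0.40, adjusted p = 0.046, edgeR), and it was the only one of 83 members called; 0.607% of all genes were. The call was lost without un-wounded library 1 (adjusted p = 0.18), un-wounded library 2 (0.063) or wounded library 3 (0.19). Of the Cox8b UMIs, 823 of 906, 216 of 275 and 489 of 532 lay in the 97, 42 and 63 skeletal muscle cells of the wounded libraries, and 22 of 23 and 16 of 27 in the 6 and 3 muscle cells of the un-wounded ones. Cox6a2 (1.68, 0.65, 21.8, 13.02 and 27.4 CPM), Cox7a1 (1.08, 4.32, 12.1, 8.71 and 9.23 CPM) and Cox4i2 (3.36, 4.19, 56.9, 6.51 and 16.9 CPM) did not overlap between groups either but had adjusted p of 0.056, 0.12 and 0.13 (edgeR). Such separation was not particular to these genes. Every wounded library was above both un-wounded ones in 16 of 83 members and below both in 9, and the share over all genes is not given here. DESeq2 called Cox6a2, Cox7a1 and Cox4i2 with Cox8b, in a fit that called 2657 genes in all, a larger share than among members. Pericytes or smooth muscle cells, the class that holds Cox4i2, numbered 49 and 30 un-wounded, then 591, 26 and 87 wounded. Within that class the un-wounded and wounded Cox4i2 values overlapped, as given above. In sums over a library alone, more cells of a type and more RNA per cell cannot be told apart. Their parts in these rises were not tested. The median log2 fold change of members was 0.0042 here, with 43 of 83 positive, and -0.012 with 39 positive without TMM.

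Ndufa4l2 was the 1 member of 83 whose wound effect differed between fibroblasts and basal keratinocytes (3.07% of all genes did). In fibroblasts it was 1336 and 1062 CPM un-wounded and 656, 587 and 330 CPM wounded, with no overlap. Basal keratinocytes had 557 and 538 CPM un-wounded and 658, 473 and 390 CPM wounded, which overlapped. The log2 fold change in fibroblasts was -1.11 ± 0.30 with an adjusted p of 0.056 in edgeR, and the difference between the classes was -1.20 ± 0.26 (SE, adjusted p = 0.017, edgeR). The fibroblast value passed the threshold with DESeq2 (adjusted p = 0.0028), no TMM (0.045), no filter on low counts (0.010), the replicate number as a block (0.015) and without wounded library 1 (0.039), and missed it under the other alternatives, where the adjusted p reached 1. Over its alternatives the adjusted p of the difference ran from 0.0012 to 1. It was 0.30 without un-wounded library 1 and 0.10 without wounded library 3.

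The fibroblasts of the 2 groups were spread unequally over the clusters, and Ndufa4l2 differed between these clusters. Cluster 20 (Igfbp2, Col1a1, Cldn10, Cpz) had 1556, 1381, 1815, 1362 and 1489 CPM, and cluster 7 (Nupr1, Cpz, Igfbp2), which gave 71.4% of the fibroblasts of un-wounded library 1, had 1507 CPM there. Cluster 23 (Cthrc1, Ptx3, Sfrp2) had 139, 84.4 and 124 CPM in the wounded libraries and gave 34.98, 22.98 and 40.2% of their fibroblasts, but under 1% in un-wounded ones (0.41 and 0.92%). Cluster 20 gave 7.04 and 67.9% of un-wounded fibroblasts, and 35.6, 16.2 and 9.46% of wounded ones. Restricted to clusters 11, 14 and 20, which held at least 30 cells in every library, the log2 fold change in fibroblasts was 0.067 and the difference from basal keratinocytes -0.018 (adjusted p = 1 in both, edgeR). This restriction was chosen after the data were seen. Within cluster 20 the groups overlapped, and in cluster 11 (218 and 384 CPM un-wounded, 516, 460 and 411 CPM wounded) every wounded value lay above both un-wounded ones. The part of the cluster mix in the class difference was not tested beyond this.

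**Figure D5:**
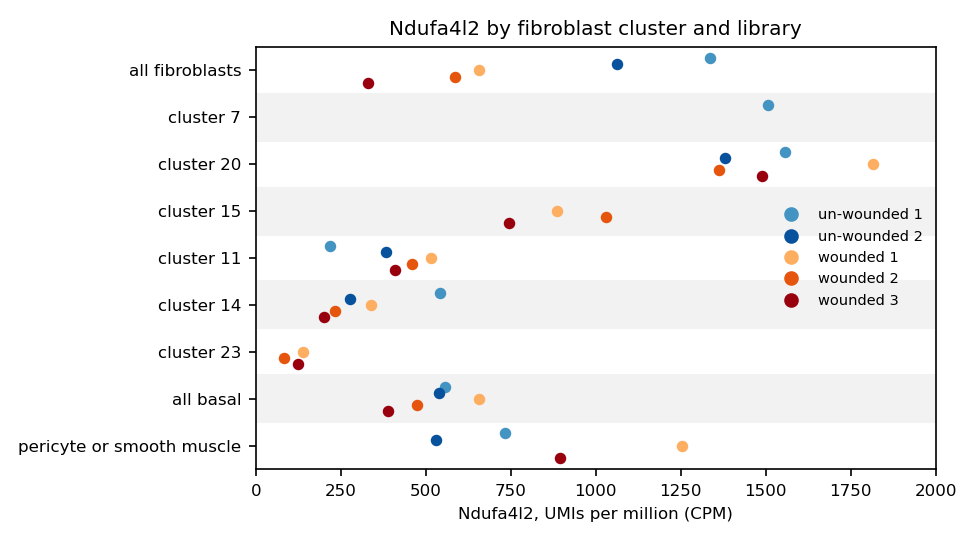
Ndufa4l2 in CPM in all fibroblasts, in each fibroblast cluster, in basal keratinocytes and in pericytes or smooth muscle cells, with 1 point per library with at least 29 cells (blue, un-wounded; orange to red, wounded). Over all fibroblasts the wounded libraries lie below the un-wounded ones, and within cluster 20 the groups overlap.

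The related gene lists gave few calls. None of the 13 mitochondrially encoded subunits was called in any class, in whole libraries or in the difference between classes, though 9 of them had an unadjusted p under 0.05 in that difference, as did 1963 of 13794 genes; their medians were 0.18 in basal keratinocytes, -0.47 in fibroblasts and -0.59 for the difference. mt-Atp6 was 6680, 6643, 5065, 5714 and 4387 CPM in fibroblasts, and mt-Co3 5681, 5819, 4151, 5199 and 3804 CPM; in both the wounded values lay below the un-wounded ones. The 4 nuclear subunit or partner genes outside the symbol rule (Ndufab1, Cycs, Usmg5, Atpif1), the assembly factors (44 in the table), the 12 regulators of mitochondrial gene expression, the 15 tricarboxylic acid cycle enzymes, the 77 mitochondrial ribosome genes and the 109 cytosolic ribosome genes gave 0 calls in every comparison. Their medians in fibroblasts were 0.42, -0.0072, -0.059, 0.22, 0.16 and 0.69. Unadjusted, 1, 4, 0, 1, 2 and 22 of the 4, 43, 12, 15, 76 and 104 tested had p under 0.05 there, beside 2894 of 13317 genes.

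Among the 16 glycolysis enzymes and transporters, Hk2, the inducible hexokinase that takes the first step of glycolysis, rose in 3 classes. It was 2.70, 4.24, 6.70, 31.5 and 23.9 CPM in basal keratinocytes (log2 fold change 2.43 ± 0.53, adjusted p = 0.017, edgeR). In spinous keratinocytes it was 1.20, 2.96, 7.37, 27.1 and 20 CPM (3.07 ± 0.60, 0.024). In fibroblasts it was 25.9, 32.6, 85.2, 105 and 144 CPM (2.02 ± 0.32, 0.0058). The other 15 were not called within any class or in whole libraries. Gapdh and Aldoa, the 2 of the list with most UMIs, had log2 fold changes of 0.83 and 0.21 in basal keratinocytes. These were 1.22 and 0.40 in spinous keratinocytes and 1.08 and 0.34 in fibroblasts. Hk2 and Eno1 are named because they were called, and they were chosen after their values were seen. Eno1, an enolase, was the only one called in the difference between fibroblasts and basal keratinocytes; its log2 fold changes were 1.01 ± 0.31 and 0.076 ± 0.32. The list's median was 0.31 in basal, 0.43 in spinous and 0.89 in fibroblast cells, above that of the members in each.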

How the data were processed

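For each library the authors deposited a matrix of unnormalised UMI counts of genes by barcodes; the submitters' processing notes name Cell Ranger 1.3.1 and mm10. The annotation and the filter on barcodes are not given in the sources used here. A minimum of 200 genes and a maximum of 10% mitochondrial UMIs decided which cells stayed, and the highest Scrublet scores (0.8% for each 1000 barcodes) were removed as doublets. Counts were scaled to 10000 per cell and clustered with scanpy 1.11.5 (2000 variable genes without the members, 30 components, 15 neighbours, Leiden resolution 1.0). A cluster was named from markers where at least 3 reached 10 CPM and the next type scored 0.5 lower; clusters whose second score was 2 or more, or whose median cell lacked the markers, were left unnamed, a limit set after scores were seen. Basal cells were split at resolution 0.5.

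UMIs summed per library were tested in edgeR 4.0.16 (R 4.3.3; filterByExpr, TMM, quasi-likelihood F-test, Benjamini-Hochberg over all genes) in classes with 30 cells in every library; wounded library 2 had 29 basal cells and was kept. For the class difference, the interaction of class and wound was fitted with a term per library. Printed CPM carry no TMM factor. Replicates differed far beyond counting error (chi-square per degree of freedom 139 to 376). Fits were also run on counts simulated for independent libraries, and nothing is drawn from that here. Gene positions are from GENCODE M21 by Ensembl ID (83 of 83), promoters from RefSeq.

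Members and lists were chosen with earlier results of these data known. Named by rule were the 2 members with most UMIs in each complex, every member called and complex IV paralog pairs. From each other list the rule allowed the 2 genes with most UMIs to be named. Other genes, such as Hk2 and Eno1, were chosen after their values were seen. Alternatives were DESeq2 1.42.0, no TMM, no filter, a replicate block, limits on mitochondrial UMIs of 5% or none, doublets kept, Leiden 2.0, members among the variable genes, another denominator, Cox4i1 left out and each library left out. Added after seeing the data were the outer root sheath test, fibroblast clusters present in every library and the split of cluster 24.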

Additional observations from a re-analysis of the deposited data

Results flagged for a closer look

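The wound effect on Ndufa4l2 differed between fibroblasts and basal keratinocytes by -1.20 on the log2 scale (adjusted p = 0.017, edgeR), tested as the interaction of class and wound. The value without un-wounded library 1 was -1.001, and that in fibroblast clusters present in every library was -0.018. Cluster membership of fibroblasts differed between groups beside it.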

How the results depend on the processing

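Counts of called members were 0 in basal keratinocytes under every alternative run. Spinous keratinocytes gave 1 (Cox8b) with no filter on low counts, in a fit that called 342 genes in all, beside 116 in the report. Fibroblasts gave 2 (Cox6a2 higher, Ndufa4l2 lower) with DESeq2, no TMM or no filter, 0 in clusters present in every library, and 0 to 2 when a library was left out. Over all genes 1313, 1065, 1896 and 14 were called in the first 4 of these and 357 to 1307 with a library left out, beside 1010 in the report. Outer root sheath or bulge keratinocytes gave 1 with no filter and 0 to 1 with a library left out. Over all genes 551 and 0 to 204 were called there, beside 126 in the report. Whole libraries gave 4 with DESeq2, 2 with no TMM or no filter, and 0 to 2 with a library left out; over all genes 2657, 116 and 700 were called in the first 3 and 0 to 2141 with a library left out, beside 94 in the report. The class difference gave 2 with no filter, 0 with a mitochondrial limit of 5%, with doublets kept or in fibroblast clusters present in every library, and 0 to 1 with a library left out (Cox4i2 in place of Ndufa4l2 without wounded library 3). Over all genes 751, 373, 224 and 127 were called in the first 4 of these and 394 to 592 with a library left out, beside 423 in the report. With the replicate number as a block the counts were 0 in basal and spinous keratinocytes, 3 in fibroblasts (Cox6a2, Cox8b, Ndufa4l2), 1 in outer root sheath or bulge keratinocytes (Uqcrfs1) and 0 in whole libraries. Over all genes 553, 408, 1820, 219 and 0 were called in these fits. Nothing in the labels says that equal numbers mark paired samples. Deviations of libraries with the same number correlated at 0.18 to 0.52 over genes in the 2 pairs there are. Unlike numbers gave the same values with a minus sign. The deviations of the 2 un-wounded libraries mirror each other, so the pairs are not independent.

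The member share, wounded minus un-wounded, was 0.0027 percentage points in basal, 0.049 in spinous, 0.11 in fibroblast, 0.44 in outer root sheath or bulge cells and 0.047 in all kept cells. With ribosomal and mitochondrial UMIs out of the denominator these were 0.17, 0.15, 0.36, 0.92 and -0.049, and with no mitochondrial limit the outer root sheath value was 0.15. Leaving out a library gave -0.083 to 0.074 in basal, -0.027 to 0.25 in fibroblasts and -0.0014 to 0.13 in all kept cells. The cause of these changes was not tested. With 2 and 3 libraries per group, and 29 to 349 cells per library in some classes, small differences could not be resolved.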

Other observations

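Cluster 13, unnamed and led by Ccl21a, Plvap and Lrg1, held a member share of 2.63 and 2.72% of UMIs in wounded libraries 1 and 3. Cluster 5, unnamed and led by Cst6, Krt79, Defb6 and Krt17, held a member share of 2.29, 2.38 and 2.50% in un-wounded libraries 1 and 2 and wounded library 1.

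Assembly factors did not follow the members in neutrophils. Their share was 0.15 and 0.11% in neutrophils of wounded libraries 2 and 3, within the range of the other classes apart from sebocytes (0.20 to 0.21%) and skeletal muscle cells (0.35 to 0.39%), where the member share of neutrophils was the lowest of all.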
